A study of Mus musculus with 69 samples.

Results

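The chemokines Cxcl9, Cxcl10 and Cxcl11 and their shared receptor Cxcr3 were followed in mouse lung after instillation of titanium dioxide nanoparticles. The 4 genes were chosen by name, as the interferon-induced ligands of CXCR3 and the receptor itself. Probes were assigned through the transcript accession on the array, and 3 of the 4 genes had a named probe among the 17639 genes kept. Cxcl11 is listed as a transcribed pseudogene in the RefSeq table used for names, no probe was paired with it there, and it was not analysed here. Lung RNA of 69 young adult female C57BL/6 mice was measured, 1 mouse per array, after a single intratracheal instillation. The mice were 5 to 7 weeks old on arrival and were kept for 1 to 3 weeks before exposure. The groups received 18, 54 or 162 µg of NRCWE-001, an unmodified particle with no charge, or the same doses of NRCWE-002, a positively charged one. The vehicle, which the exposed mice also received, was 2% serum in water, and its groups carry the label of a water control. Lungs were taken on day 1 or day 28, with 5 mice in each group and 4 in the vehicle group of day 28.

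CXCL9 and CXCL10 are small secreted proteins of the CXC family that attract activated T cells and natural killer (NK) cells. Interferon gamma induces both, and Cxcl10 also responds to type I interferons and to NF-kB signals from innate receptors and tumour necrosis factor. They are made in lung mainly by macrophages, epithelium, endothelium and fibroblasts. CXCR3 is the G-protein-coupled receptor on T and NK cells that reads both gradients, so ligand and receptor transcripts come largely from different cells of the tissue. In whole-lung RNA, fewer cells of a type and less RNA per cell cannot be told apart.

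The promoters of the 2 measured ligands are shown because their levels went together from mouse to mouse, as described further on. Both genes lie on the minus strand of chromosome 5 and each sequence is the 250 bases before the start, read 5′ to 3′ on the strand of the gene, from RefSeq on build GRCm38.p6. Capitals mark matches to 3 motifs searched on both strands, the interferon regulatory factor core AANNGAAA, the gamma-activated site TTCNNNGAA and the NF-kB-like GGANNTNCC.
Cxcl9 chr5:92328080-92328329: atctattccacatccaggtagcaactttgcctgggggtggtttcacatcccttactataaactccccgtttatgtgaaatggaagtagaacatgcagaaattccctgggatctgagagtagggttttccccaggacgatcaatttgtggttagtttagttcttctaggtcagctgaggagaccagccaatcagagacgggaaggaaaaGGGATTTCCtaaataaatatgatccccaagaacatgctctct
Cxcl10 chr5:92348890-92349139: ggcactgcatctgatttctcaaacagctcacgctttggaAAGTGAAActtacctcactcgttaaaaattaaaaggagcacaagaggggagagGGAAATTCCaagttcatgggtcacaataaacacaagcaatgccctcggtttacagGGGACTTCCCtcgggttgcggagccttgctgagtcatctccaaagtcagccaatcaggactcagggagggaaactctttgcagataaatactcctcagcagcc

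The Cxcl10 window held 1 match to the interferon regulatory factor core and 4 NF-kB-like matches at 2 places, where a match on the printed strand overlapped one on the other strand. The Cxcl9 window held 1 NF-kB-like match, on the other strand. The window before Cxcr3, on chromosome X, held no match to the 3 motifs, and no window of the 3 genes held a match to the gamma-activated site letters. Of all 32851 promoter windows of this length, 21.3% held the interferon regulatory factor core, 12.2% the NF-kB-like motif and 7.02% the gamma-activated site. A match describes letters only, and no binding was measured. A window without a match to these fixed letters can still hold response elements of other sequence.

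Each level is a log2 ratio of lung RNA to a common mouse reference RNA on the same array. Levels of different genes are therefore not comparable, and differences between groups carry the comparison. The share of probes well above background in the lung channel ran from 61.4% to 87.8% of an array, and 0 spots were saturated. The markers of lung epithelium averaged 5.87 to 6.96 over the arrays on the log2 scale, so lung tissue was present on all of them. Each of the 3 measured genes had 1 probe. The lung signal of Cxcl10 and of Cxcr3 was well above background on all 69 arrays, and that of Cxcl9 on 48. The reference signal of Cxcl9 was well above background on 0 of 69 arrays, so the size of its ratios depends on how background was treated. Arrays of the same slide resembled each other, with an estimated correlation of 0.469 between residuals, and values with slide as a block are given beside the results they move. P-values measure the spread between these mice.

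Cxcl10 was the member with the widest differences between vehicle and 162 µg. In the vehicle mice of day 1 its levels were -1.02, -1.0, -1.11, -0.93 and -1.16. After 162 µg of NRCWE-001 they were -0.0043, 0.60, 1.75, 2.63 and -1.07, and after 162 µg of NRCWE-002 they were 0.08, 1.61, 0.62, 1.16 and -1.0. In each exposed group 4 mice lay above every vehicle mouse and the fifth lay within the vehicle range. The log2 change was 1.83 ± 0.66 (SE, 3.55-fold) for NRCWE-001 and 1.54 ± 0.66 (2.91-fold) for NRCWE-002. Neither passed the test across all genes, with adjusted p = 0.315 and 0.414 by limma. This fit pools 1 spread over all 14 groups, whose SD for Cxcl10 ran from 0.09 to 2.01. In a fit of the day 1 arrays alone, the adjusted p was 0.0536 and 0.0899 by limma. That fit called 268 and 480 of 17639 genes, against 102 and 105 with all arrays.

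On day 28 the Cxcl10 levels of the vehicle mice were -1.30, -1.44, -0.96 and -0.74. After 162 µg of NRCWE-001 they were 0.94, -1.13, -0.99, 3.00 and 2.93. After 162 µg of NRCWE-002 they were -1.66, 1.76, -0.68, 2.95 and 2.30. The exposed mice fell apart into high and low animals, and 3 of 5 for NRCWE-001 and 4 of 5 for NRCWE-002 lay above every vehicle mouse. The log2 change was 2.06 ± 0.70 (4.17-fold, adjusted p = 0.291) for NRCWE-001 and 2.05 ± 0.70 (4.13-fold, adjusted p = 0.556) for NRCWE-002 by limma. The SD within these groups was 2.01 and 2.00 (n = 5 each), against 0.32 (n = 4) in vehicle mice.

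At the lower doses the mean level of Cxcl10 lay between vehicle and 162 µg or near vehicle. On day 1 it was -1.19 ± 0.31 (SD, n = 5) at 18 µg and -0.14 ± 0.93 at 54 µg of NRCWE-001, against -1.04 ± 0.09 in vehicle mice. For NRCWE-002 it was -0.80 ± 0.18 at 18 µg and -0.015 ± 0.83 at 54 µg. The 5 mice at 54 µg of NRCWE-002, between -0.75 and 1.1, all lay above all 5 vehicle mice, which held for 1.7% of all genes in that direction. This was 1 of 36 comparisons of a member with vehicle, and in the other 35 the groups overlapped. On day 28 the means were -1.17 ± 0.31 at 18 µg and -0.99 ± 0.64 at 54 µg of NRCWE-001. For NRCWE-002 they were -0.79 ± 0.95 and -0.10 ± 1.13, against -1.11 ± 0.32 (n = 4) in vehicle mice.

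**Figure D1:**
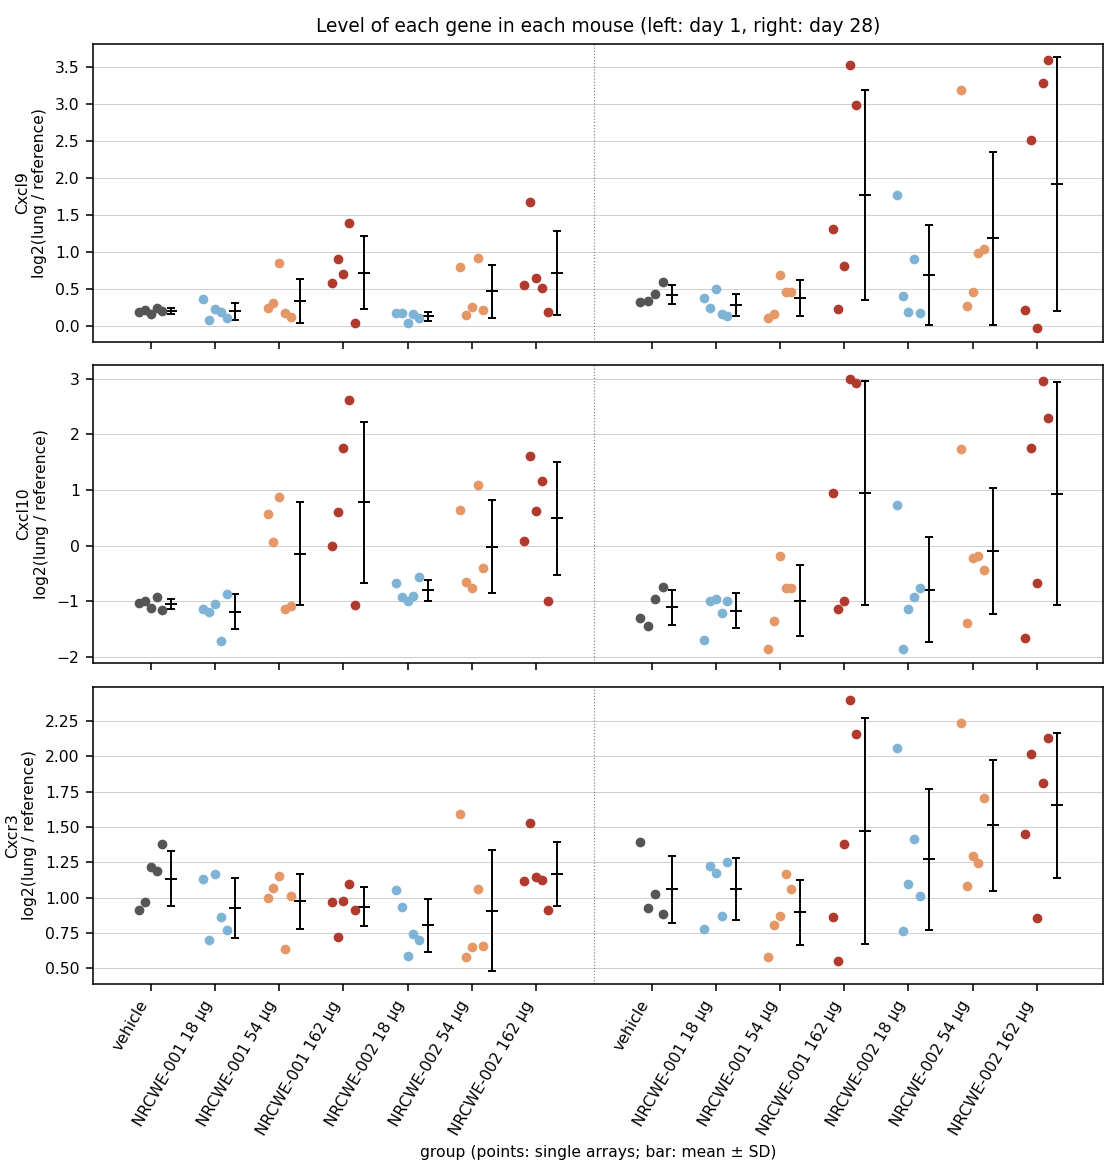
Level of Cxcl9, Cxcl10 and Cxcr3 in every mouse, as log2 of lung over reference RNA, by group, with day 1 on the left and day 28 on the right. Points are single arrays and bars are the mean ± SD of a group. At 162 µg on day 28 Cxcl10 runs from -1.66 to 3.00, while the vehicle mice of both days stay between -1.44 and -0.74.

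Cxcl9, the ligand most closely tied to interferon gamma, had smaller mean differences from vehicle at 162 µg than Cxcl10 in this fit, where its dim reference leaves their size uncertain. Its levels in the vehicle mice of day 1 were 0.18, 0.22, 0.16, 0.25 and 0.20. They were 0.58, 0.90, 0.70, 1.39 and 0.04 after 162 µg of NRCWE-001, and 0.55, 1.68, 0.64, 0.51 and 0.19 after 162 µg of NRCWE-002. Again 4 of 5 mice of each group lay above every vehicle mouse. The log2 change was 0.52 ± 0.46 (1.43-fold, adjusted p = 0.999) and 0.51 ± 0.46 (1.43-fold, adjusted p = 0.872) by limma. Fitted on the day 1 arrays alone, these changes had adjusted p = 0.227 and 0.18 by limma. With the scanner software's processed signals, which treat the dim reference differently, these changes were 2.20 (adjusted p = 0.414) and 1.44 (adjusted p = 0.672). Without replicate 2 of NRCWE-002, the mouse at 1.68, the change for that particle was 0.27.

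On day 28 Cxcl9 measured 0.32, 0.33, 0.44 and 0.60 in vehicle mice. After 162 µg it was 1.31, 0.23, 0.82, 3.52 and 2.98 for NRCWE-001 and 0.21, 2.52, -0.03, 3.28 and 3.60 for NRCWE-002. In each group the 3 mice highest in Cxcl9 were the 3 highest in Cxcl10, and the lowest mouse of each lay below all vehicle mice in Cxcl9. The log2 change was 1.35 ± 0.49 (2.55-fold, adjusted p = 0.334) and 1.49 ± 0.49 (2.82-fold, adjusted p = 0.496) by limma. Without replicate 3 of NRCWE-002, the mouse at -0.03, the change was 1.98 and passed the threshold (adjusted p = 0.0454). With slide as a fixed block the change for NRCWE-001 was 0.86 (adjusted p = 0.999), less than its value without the block by over 1.5 times.

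At 18 and 54 µg the group means of Cxcl9 on day 1 lay between 0.13 ± 0.06 and 0.47 ± 0.36 (SD, n = 5), beside 0.20 ± 0.04 in vehicle mice. On day 28 they were 0.28 ± 0.15 at 18 µg and 0.38 ± 0.24 at 54 µg of NRCWE-001, beside 0.42 ± 0.13 (n = 4) in vehicle mice. For NRCWE-002 they were 0.69 ± 0.67 at 18 µg and 1.19 ± 1.17 at 54 µg, with the highest mice at 1.77 and 3.19. Above every vehicle mouse of day 28 lay 2 of 5 mice at 18 µg and 3 of 5 at 54 µg, while 2 and 1 lay below all of them.

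Cxcr3, the receptor, had the smallest mean differences from vehicle at 162 µg. Its levels on day 1 were 0.91, 0.97, 1.22, 1.19 and 1.38 in vehicle mice. They were 0.97, 0.72, 0.98, 1.1 and 0.92 after 162 µg of NRCWE-001, and 1.12, 1.53, 1.15, 1.13 and 0.91 after 162 µg of NRCWE-002. All but 1 of the 10 exposed mice lay at or below the highest vehicle mouse. The log2 change was -0.20 ± 0.23 (adjusted p = 0.999) and 0.03 ± 0.23 (adjusted p = 0.994) by limma, and the second turned to -0.18 with slide as a fixed block.

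On day 28 Cxcr3 measured 1.40, 0.93, 1.03 and 0.88 in vehicle mice. It was 0.86, 0.55, 1.38, 2.40 and 2.16 after 162 µg of NRCWE-001, and 1.45, 2.01, 0.86, 1.81 and 2.13 after 162 µg of NRCWE-002. The mice above 1.8 were the same 5 that had Cxcl9 above 2.5, and these 5 were above every vehicle mouse in all 3 genes. The log2 change was 0.41 ± 0.25 (1.33-fold, adjusted p = 0.675) and 0.60 ± 0.25 (1.51-fold, adjusted p = 0.661) by limma. Fitted with a fixed slide block, the change for NRCWE-001 was 0.18 (adjusted p = 0.999). Single mice moved it as far, to 0.18 without replicate 4, 0.24 without replicate 5 and 0.64 without replicate 2.

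At the lower doses the mean of Cxcr3 on day 1 ran from 0.80 ± 0.19 to 0.97 ± 0.20 (SD, n = 5), beside 1.13 ± 0.19 in vehicle mice. On day 28 it was 1.06 ± 0.22 and 0.90 ± 0.23 at 18 and 54 µg of NRCWE-001, and 1.27 ± 0.50 and 1.51 ± 0.47 at 18 and 54 µg of NRCWE-002, beside 1.06 ± 0.23 (n = 4) in vehicle mice.

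The 14 groups were put in order of their mean level. The 2 groups at 162 µg on day 28 stood first for Cxcl10, with NRCWE-001 at 0.95 and NRCWE-002 at 0.94, and first for Cxcl9, with NRCWE-002 at 1.92 and NRCWE-001 at 1.77. For Cxcr3 NRCWE-002 at 162 µg on day 28 stood first at 1.65, before its 54 µg group of day 28 at 1.51. For every gene, 0 of the 13 gaps between neighbours in the order exceeded the larger SD of the pair, so no neighbouring groups differed beyond their spread. Pooled within groups, the SD was 1.07 for Cxcl10, 0.746 for Cxcl9 and 0.374 for Cxcr3.

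Across all genes limma called 0 of the 3 members at an adjusted p below 0.05 in every comparison of a dose with vehicle. On day 1 the share of all genes called was 0% at 18 µg, 0% at 54 µg and 0.578% at 162 µg of NRCWE-001, and 0%, 0.0624% and 0.595% at the same doses of NRCWE-002. On day 28 it was 0.193%, 0% and 0.0454% for NRCWE-001 and 0%, 0% and 0.00567% for NRCWE-002. With slide in the model more genes were called on day 1 at 162 µg, namely 771 for NRCWE-001 and 345 for NRCWE-002 of 17639 with a fixed block, and 584 and 512 with a random one, against 102 and 105 without. On day 28 the counts were 0 and 1 with a fixed block and 7 and 15 with a random one, against 8 and 1. Under both blocks 0 members were called in these comparisons. At an unadjusted p below 0.05 the members past it at 162 µg were Cxcl10 for each particle on day 1, Cxcl9 and Cxcl10 for NRCWE-001 on day 28, and all 3 for NRCWE-002 on day 28. The share of all genes past an unadjusted p of 0.05 in these comparisons was 7.08%, 8.93%, 8.63% and 6.71%. Both particles were set against the same vehicle mice, so their changes are not independent of each other.

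**Figure D2:**
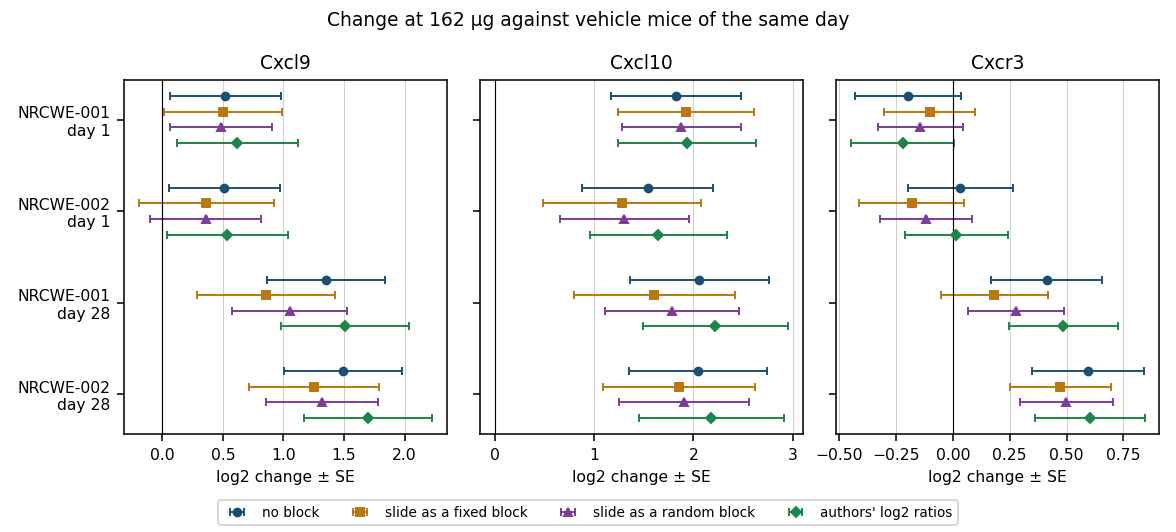
Change of each gene at 162 µg against vehicle mice of the same day, as log2 change ± SE, for both particles and days. Symbols give the fit with no block, with slide as a fixed or random block, and the fit of the authors' log2 ratios. Cxcl10 lies between 1.28 and 2.22 in all 16 fits shown, and Cxcr3 on day 1 lies on both sides of 0.

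The dose effect, a moderated F-test over the 3 doses, also called 0 of the 3 members for either particle on either day. The share of all genes it called was 0.697% with NRCWE-001 and 0.822% with NRCWE-002 on day 1, and 0.476% and 0% on day 28. For NRCWE-001 the F of Cxcl10 was 3.86 on day 1 (adjusted p = 0.393) and 4.75 on day 28 (adjusted p = 0.21), and that of Cxcl9 on day 28 was 4.68 (adjusted p = 0.219). With slide as a random block Cxcl10 passed on day 1 for NRCWE-001, with F = 5.48 and adjusted p = 0.0415, as did 1005 of 17639 genes, against 123 without the block. It did not pass with slide as a fixed block (adjusted p = 0.0804, 1309 genes called) or with scan day (adjusted p = 0.134, 1162 genes called). Without replicate 2 at 162 µg of NRCWE-001 on day 28, a mouse that lay above the highest vehicle mouse in none of the genes, Cxcl9 (F = 6.97, adjusted p = 0.035) and Cxcl10 (F = 6.79, adjusted p = 0.0387) passed for that particle on day 28. The ordinary F-statistic called 0 members.

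The 2 particles differ by the positive charge of NRCWE-002, and were compared over the mean of the 3 doses. On day 1 NRCWE-002 exceeded NRCWE-001 by 0.07 ± 0.38 (SE) for Cxcl10, 0.02 ± 0.27 for Cxcl9 and 0.01 ± 0.13 for Cxcr3 on the log2 scale. On day 28 it exceeded it by 0.42 ± 0.38 for Cxcl10 (adjusted p = 0.54), 0.45 ± 0.27 for Cxcl9 (adjusted p = 0.309) and 0.34 ± 0.13 for Cxcr3 (adjusted p = 0.12). Of the 3 members 0 were called, against 0.125% of all genes on day 1 and 4.75% on day 28. The day 28 share was 837 genes without a block and came to 4 with slide as a fixed block, 19 as a random block and 5 with scan day, while median centring gave 4511. With slide as a fixed block the day 28 differences of the members were 0.64 ± 0.57 for Cxcl10, 0.66 ± 0.40 for Cxcl9 and 0.40 ± 0.16 for Cxcr3, with adjusted p = 0.956, 0.882 and 0.725 by limma. Only Cxcr3 on day 28 had an unadjusted p below 0.05, at 0.0147, while 22.2% of all genes did. Without replicate 4 at 162 µg of NRCWE-001 on day 28, the mouse with the highest Cxcr3, its difference was 0.41 and passed (adjusted p = 0.042). Leaving out 1 array moved the Cxcl10 difference of day 28 between 0.25, without replicate 2 at 162 µg of NRCWE-001, and 0.64, without replicate 1 at 162 µg of NRCWE-002. The Cxcl9 difference was 0.29 without replicate 1 at 54 µg of NRCWE-002.

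In the fit without a block, the effect of 162 µg was larger on day 28 than on day 1. With NRCWE-001 the difference was 0.83 ± 0.67 for Cxcl9, 0.61 ± 0.34 for Cxcr3 and 0.23 ± 0.96 for Cxcl10. With NRCWE-002 the differences were 0.98 ± 0.67, 0.56 ± 0.34 and 0.51 ± 0.96 in the same order. The direction was not kept in all fits for NRCWE-001. Its Cxcl10 difference was -0.32 with slide as a fixed block and -0.09 as a random block. Its Cxcl9 difference was -0.18 with processed signals. By limma 0 members and 0% of all genes were called for either particle, and 0 members had an unadjusted p below 0.05. Single mice moved these differences. Without replicate 4 of NRCWE-002 on day 28, the Cxcl10 difference for that particle was 0.002324, and without replicate 1 it was 1.16. Its Cxcl9 difference was 0.56 without replicate 5 of day 28. For NRCWE-001, the Cxcl9 difference was 0.39 and the Cxcr3 difference 0.38 without replicate 4 of day 28, and the Cxcl10 difference ran from -0.28 without that mouse to 0.75 without replicate 2. The vehicle mice of day 28 differed from those of day 1 by 0.22 ± 0.49 for Cxcl9, -0.07 ± 0.70 for Cxcl10 and -0.08 ± 0.25 for Cxcr3, and 0% of all genes were called.

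Mice of 1 slide could be compared directly where it held both a 162 µg and a vehicle array of the same day. On day 1 this gave 3 slides for NRCWE-001, where Cxcl10 exceeded the vehicle mouse by 1.02, 1.6 and 2.87, and 2 slides for NRCWE-002, where it did by 1.01 and 1.78. Cxcl9 exceeded it on the same slides by 0.40, 0.68 and 0.54 and by 0.30 and 0.45. The day 1 difference of both ligands was thus also seen within each of the 5 slides. The exposed mouse at the vehicle level in each group lay on a slide with no vehicle array. On day 28 only 1 slide held both for NRCWE-001, with differences of 2.38 for Cxcl10, 0.98 for Cxcl9 and -0.07 for Cxcr3. The 2 slides for NRCWE-002 gave -0.36 and 0.06 for Cxcl10, and -0.11 and -0.62 for Cxcl9, and the 162 µg mice on them were the 2 lowest of their group for both ligands. The 5 mice with all 3 genes above every vehicle mouse at 162 µg on day 28 lay on 5 slides, none of which held a vehicle array of that day.

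**Figure D3:**
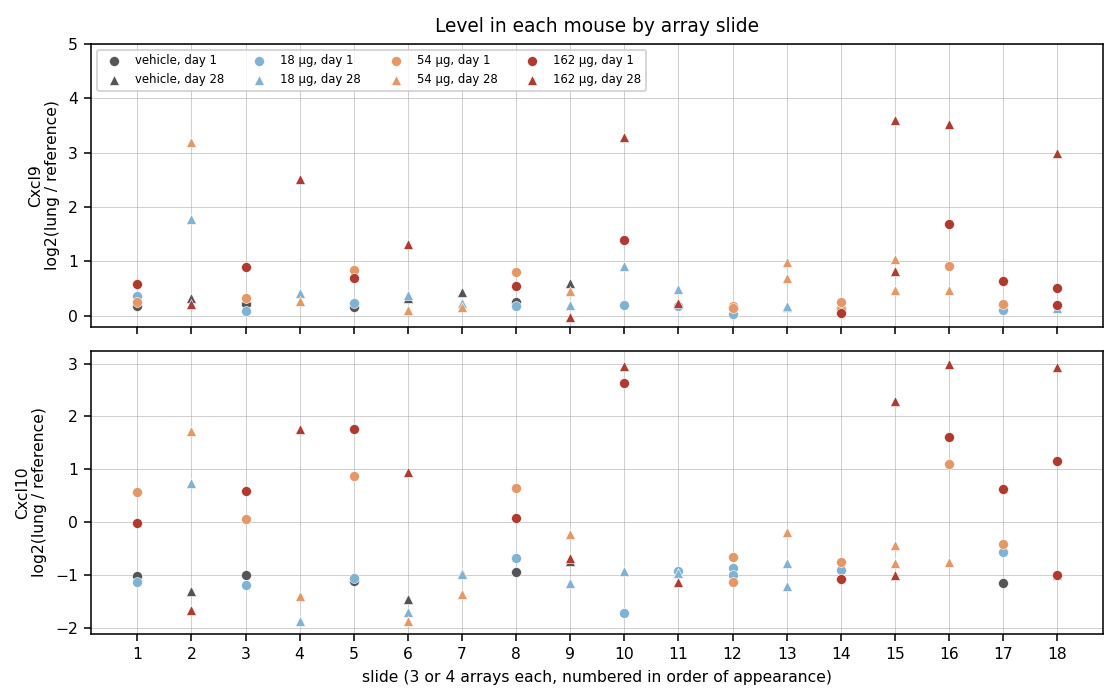
Level of Cxcl9 and Cxcl10 in every mouse by array slide, as log2 of lung over reference RNA, coloured by dose with circles for day 1 and triangles for day 28. The highest Cxcl9 arrays, at 2.52 to 3.60, lie on 6 slides. On slide 2 the 54 µg mouse at 3.19 stands above the 162 µg mouse at 0.21.

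The members varied together between mice of the same group. After subtraction of group means, Cxcl9 and Cxcl10 correlated at r = 0.875 (Spearman rho = 0.796) over 69 arrays. For Cxcl9 and Cxcr3 r was 0.788 (rho = 0.725) and for Cxcl10 and Cxcr3 it was 0.705 (rho = 0.668). The adjusted p was 1e-05 for each of the 3 pairs and both measures, the smallest that the permutation test can give. Here and in the next paragraph, the permutations exchanged values between groups of unequal spread. The group SD ran from 0.09 to 2.01 for Cxcl10 and from 0.04 to 1.71 for Cxcl9. These p-values do not allow for that, so r and rho are the better guide. Without the 2 arrays farthest from the median of the first gene, r was 0.876, 0.745 and 0.695. With slide means subtracted as well, r was 0.887, 0.808 and 0.754 (permutation test, adjusted p = 1e-05 each).

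Since the 162 µg mice of day 28 fall into high and low animals, the correlations were also taken over the other 59 arrays. They were 0.779 for Cxcl9 and Cxcl10 (rho = 0.706), 0.709 for Cxcl9 and Cxcr3 (rho = 0.632) and 0.631 for Cxcl10 and Cxcr3 (rho = 0.586), with an adjusted permutation p of 1e-05 each. Without the 2 farthest arrays they were 0.745, 0.584 and 0.684. In the 9 vehicle mice the ligands also varied together around their group means, with r = 0.931 and rho = 0.883 (exact permutation test, adjusted p = 0.001 and 0.0092), and r was 0.887 without the 2 farthest mice. Cxcl9 was dim there, with a lung signal well above background on 2 of 5 arrays of day 1 and 4 of 4 of day 28. Its SD was 0.04 on day 1 and 0.13 on day 28, so the day 28 mice weigh most in this r. Slide means were not subtracted in these 9 mice, and the exact test exchanged values between the days despite this unequal SD. Cxcr3 gave r = -0.425 with Cxcl9 and -0.406 with Cxcl10 in these 9 mice (exact permutation test, adjusted p = 0.28 each). With rho these were -0.433 and -0.467 (adjusted p = 0.25 each), and without the 2 farthest mice 0.173 and -0.705. The difference between vehicle mice and all mice was not tested.

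**Figure D4:**
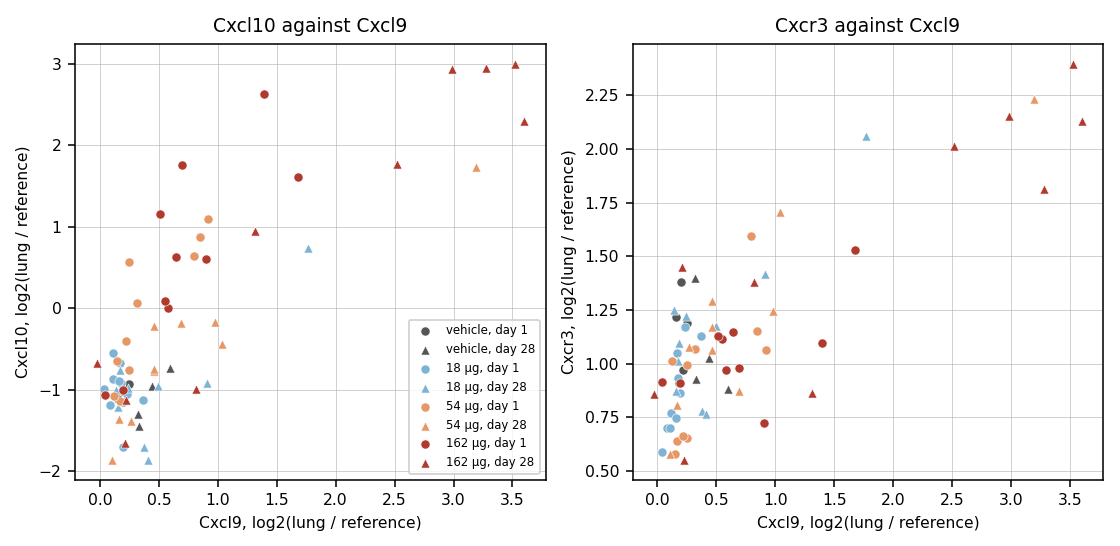
Level of Cxcl10 (left) and Cxcr3 (right) against Cxcl9 in every mouse, both axes as log2 of lung over reference RNA, coloured by dose with circles for day 1 and triangles for day 28. The 5 day 28 mice at 162 µg with Cxcl9 of 2.52 or more also hold Cxcl10 of 1.76 or more and Cxcr3 of 1.81 or more.

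The genes whose levels were most like those of Cxcl9 over the 69 arrays, of 17638 others, were Dhx58 (r = 0.942), Oas1f (0.939), Rtp4 (0.937), Oasl2 (0.935) and Phf11a (0.931). Dhx58 is a relative of the viral RNA sensor RIG-I, and Oasl2 belongs to the oligoadenylate synthetase family of interferon-induced genes. For Cxcl10 they were Ccl12 (0.923), Ifit1 (0.919), Ly6f (0.901), Ccl2 (0.896) and Nfkbie (0.895). Ccl2 and Ccl12 encode monocyte chemokines, Ifit1 is an interferon-induced RNA-binding protein and Nfkbie encodes an inhibitor of NF-kB. For Cxcr3 they were Icos (0.888), Ms4a6b (0.875), Ms4a4c (0.861), Il2rb (0.850) and Ifi209 (0.845), where Icos is a costimulatory receptor of activated T cells and Il2rb a subunit of the interleukin-2 receptor. Among the genes most like Cxcl9, Cxcl10 ranked 42nd and Cxcr3 49th. Among those most like Cxcl10, Cxcl9 ranked 28th and Cxcr3 281st, and among those most like Cxcr3, Cxcl9 ranked 14th and Cxcl10 232nd. These correlations share the arrays, their slides and the group differences, and are given as a description. After removal of group and slide means, 1 of the 5 genes stayed for Cxcl9, 0 for Cxcl10 and 4 for Cxcr3, and the new leaders were Irf7 (0.944) for Cxcl9 and Ifit3 (0.945) for Cxcl10.

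The rest of the interferon pathway was read at 162 µg from lists of named genes. Pairs of values below are log2 changes ± SE for NRCWE-001 and NRCWE-002 in this order. Of 7 measured interferons and receptors 0 were called in any of the 4 comparisons. Ifng, which encodes interferon gamma, measured -0.16 ± 0.14 and -0.22 ± 0.14 on day 1 and 0.13 ± 0.15 and 0.21 ± 0.15 on day 28. Ifnar2, a subunit of the type I interferon receptor, measured 0.14 ± 0.09 and 0.18 ± 0.09 on day 1 and 0.15 ± 0.10 and 0.24 ± 0.10 on day 28. Of 11 signalling genes 0 were called. Irf7, the factor that amplifies type I interferon responses, measured 1.74 ± 0.58 (adjusted p = 0.273) and 1.95 ± 0.58 (adjusted p = 0.382) on day 28 by limma. Stat2, a transcription factor of type I interferon signalling, measured 0.74 ± 0.31 (adjusted p = 0.433) and 1.22 ± 0.31 (adjusted p = 0.146) on day 28 by limma.

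Of 18 interferon-gamma-induced effectors 0 were called. Their median change was 0.14 and 0.09 on day 1 and 0.48 and 0.49 on day 28, beside a median of all genes between -0.011 and 0.012. The immune GTPase Igtp came nearest, at 1.12 ± 0.24 for NRCWE-002 on day 28 (adjusted p = 0.0503), and the Fc receptor Fcgr1 measured 1.37 ± 0.35 for NRCWE-001 on day 28 (adjusted p = 0.128). Gbp6, a guanylate-binding protein of the same response, measured 0.73 ± 0.28 and 0.87 ± 0.28 on day 28 (adjusted p = 0.402 and 0.505 by limma). At an unadjusted p below 0.05 were 0 and 1 of the 18 effectors on day 1, and 8 and 10 on day 28. Of all genes, 7.08% and 8.93% were below it on day 1, and 8.63% and 6.71% on day 28. Of 16 measured type I interferon-induced antiviral genes 0 were called. All 16 had a higher mean than vehicle in each of the 4 comparisons, with a median change of 0.37 and 0.31 on day 1 and 0.90 and 1.01 on day 28. Unadjusted p below 0.05 was reached by 0 of them on day 1, while on day 28 it was reached by 13 with NRCWE-001 and 16 with NRCWE-002, beside 8.63% and 6.71% of all genes. The genes of a list were measured in the same mice, so they are not independent of each other. The lists were also chosen with earlier results of these data known. For NRCWE-002 on day 28 Ifit1 measured 1.59 ± 0.47 (adjusted p = 0.389), and the oligoadenylate synthetase genes Oas1a and Oasl1 measured 1.52 ± 0.46 (adjusted p = 0.427) and 1.52 ± 0.41 (adjusted p = 0.265).

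**Figure D5:**
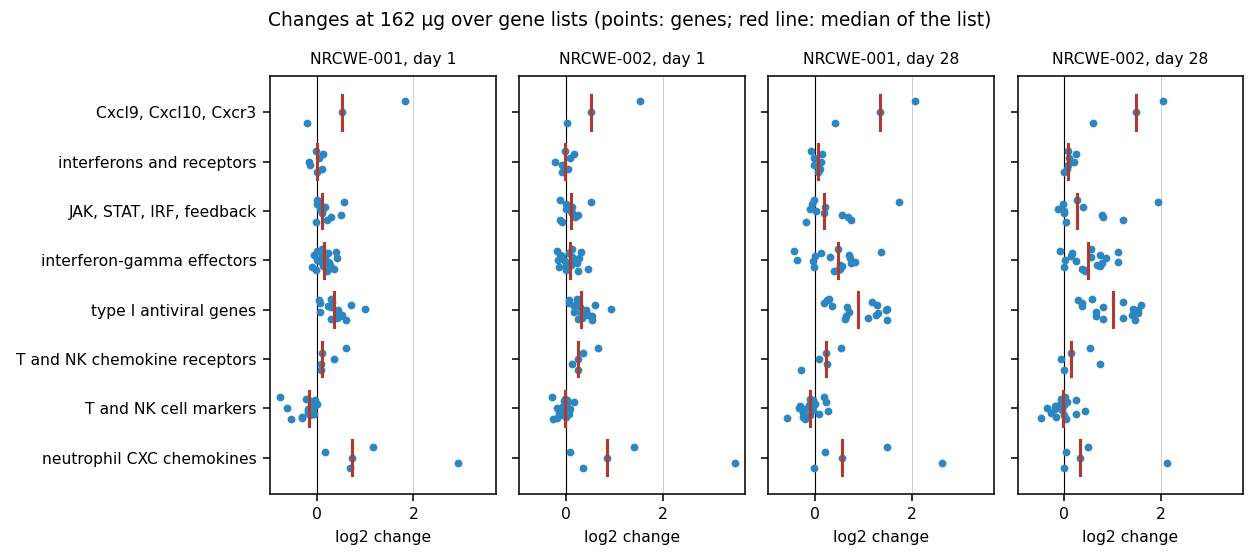
Log2 change at 162 µg against vehicle mice of the same day for the members and 7 gene lists, in 4 panels by particle and day. Points are genes and red lines are list medians. The type I antiviral genes have medians of 0.37, 0.31, 0.90 and 1.01, while the medians of the T and NK cell markers lie between -0.16 and -0.02.

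The high and low mice of day 28 were also high and low in this list. The mean level of the type I interferon-induced antiviral genes in the 5 mice at 162 µg of NRCWE-001 on day 28 was 1.26, 0.02, 0.04, 1.69 and 1.84, in the order given for the members. For NRCWE-002 it was -0.09, 1.75, -0.04, 2.03 and 1.71. In the vehicle mice of day 28 it ran from 0.03 to 0.12. The same mice were thus high for Cxcl9, Cxcl10 and the antiviral genes.

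Markers of the cells that carry CXCR3 had median changes from -0.16 to -0.02 at 162 µg, beside -0.011 to 0.012 for all genes. On day 1 with NRCWE-001 their median change was -0.16, with a higher mean than vehicle in 1 of 18. An unadjusted p below 0.05 was reached by 3 of them and by 7.08% of all genes. The list ran from 0.64 to 0.93 beside 0.86 to 1.26 in vehicle mice. There the chemokine gene Ccl5 measured -0.75 ± 0.21 (adjusted p = 0.104) and Gzma, granzyme A, -0.61 ± 0.28 (adjusted p = 0.613 by limma). With NRCWE-002 on day 1 the median was -0.03, 7 of 18 had a higher mean than vehicle, and the list ran from 0.87 to 1.1. Of 19 listed T and NK cell markers 18 were measured, 0 were called, and the mean level of the list at 162 µg on day 28 was 0.66 to 1.37 for NRCWE-001 and 0.91 to 1.34 for NRCWE-002, beside 0.95 to 1.43 in vehicle mice. Their median change on day 28 was -0.10 and -0.02. A higher mean than vehicle was found in 4 and 8 of the 18, with changes up to 0.26 and 0.42. The cytotoxic granule gene Prf1, perforin, measured -0.57 ± 0.24 and -0.47 ± 0.24. Of 5 other chemokine receptors of T and NK cells 0 were called, and the median change of the list was 0.11 and 0.26 on day 1 and 0.22 and 0.13 on day 28. Of 4 genes that bind or process these ligands, Pf4, Ackr1, Ackr3 and Dpp4, 0 were called, and Pf4, a platelet chemokine, measured 0.45 ± 0.17 and 0.42 ± 0.17 on day 1. Of 6 measured upstream cytokines 0 were called, with Tnf at 0.35 ± 0.17 for both particles on day 1. Il18, which drives interferon gamma production in T and NK cells, measured -0.47 ± 0.21 and -0.43 ± 0.21 on day 1. The median change of the upstream list was 0.002 and 0.049 on day 1 and -0.021 and -0.015 on day 28. On day 28 its genes ran from -0.134 to 0.421 with NRCWE-001 and from -0.505 to 0.292 with NRCWE-002.

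Neutrophil-recruiting CXC chemokines were set beside the members as the other main CXC group. On day 1, NRCWE-001 had 1 of the 5 measured genes called and NRCWE-002 had 2, beside 0.578% and 0.595% of all genes. On day 28 both had 0, beside 0.0454% and 0.00567%. The largest change of the list was 2.93 and 3.49 on day 1 and 2.62 and 2.13 on day 28. An unadjusted p below 0.05 was reached by 5 and 4 of the genes on day 1, and by 4 and 1 on day 28. Of all genes, 7.08% and 8.93% reached it on day 1, and 8.63% and 6.71% on day 28. The genes called on day 1 were Cxcl5, at 3.49 ± 0.78 (adjusted p = 0.0166), and Cxcl3, at 0.85 ± 0.20 (adjusted p = 0.0193), for NRCWE-002. For NRCWE-001 it was the receptor Cxcr2, at 0.69 ± 0.16 (adjusted p = 0.0201 by limma). The difference between these changes and those of the members was not tested.

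Markers of other cell types were also called on day 1. Of 6 measured neutrophil markers of 7 listed, Csf3r and Cxcr2 were called for NRCWE-001, and the mean level of the list was 1.84 to 3.17 at 162 µg of NRCWE-001 and 1.94 to 2.71 of NRCWE-002, beside 1.63 to 2.13 in vehicle mice. Of 10 measured macrophage and monocyte markers of 11, Cd14 was called for both particles on day 1, at 1.33 ± 0.34 (adjusted p = 0.0489) and 1.58 ± 0.34 (adjusted p = 0.0111), and the list ran from 1.26 to 1.85 and from 1.57 to 1.80, beside 1.19 to 1.48. The 5 cardiac muscle markers, from a tissue next to the lung, were 0.27 to 3.87 over all arrays. At 162 µg of NRCWE-002 on day 28 they were 2.28 to 3.87, beside 0.58 to 2.92 in vehicle mice. In the order given, those 5 mice measured 2.42, 3.36, 2.28, 3.87 and 2.64, and the 5 of NRCWE-001 on day 28 measured 0.59, 0.66, 2.97, 2.16 and 0.29. Of these 5 cardiac markers 0 were called. At 162 µg of NRCWE-002 on day 28 all 5 had a higher mean than vehicle, with a median change of 1.54. An unadjusted p below 0.05 was reached there by 3 of the 5 and by 6.71% of all genes. For NRCWE-001 on day 28 the median change was 0.08, and 0 of the 5 reached it. With NRCWE-002 the mice highest in this list, at 3.36, 3.87 and 2.64, were also those highest in Cxcl10. With NRCWE-001 the mouse at 2.97 was low in Cxcl10, and the mice highest in Cxcl10 measured 2.16 and 0.29. Of 6 dendritic cell, 5 B and plasma cell, 6 endothelial, 6 lung epithelial and 4 adipose markers, all measured, 0 were called at 162 µg. The median change of the adipose markers on day 28 was -0.20 with NRCWE-001 and 0.95 with NRCWE-002, and 0 reached an unadjusted p below 0.05. On day 28 all 6 endothelial markers had a lower mean than vehicle with each particle. For NRCWE-001 their median change was -0.46 and 4 reached an unadjusted p below 0.05, as did 8.63% of all genes. With NRCWE-002 the median was -0.19 and 0 of the 6 did. Pecam1, an adhesion molecule of endothelium, measured -0.63 ± 0.21 and -0.30 ± 0.21 (adjusted p = 0.284 and 0.818 by limma). Jchain, a plasma cell gene, measured 1.56 ± 0.42 (adjusted p = 0.158) and 1.89 ± 0.42 (adjusted p = 0.0869) on day 28 by limma. Of the 5 B and plasma cell markers only this 1 had a higher mean than vehicle there, and the list medians were -0.046 and -0.055. The part of these cells and tissues in the levels of the members was not tested.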

How the data were processed

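Lung RNA (Cy5) of 69 mice was hybridised with Universal Mouse Reference RNA (Cy3), with no dye swap. The deposited scanner output, made by the authors in Feature Extraction 11.0.1.1 of Agilent, held the intensity of each spot and its local background, not normalized. The authors' deposited table held log2 ratios normalized within arrays, and served as an alternative. Median intensities were corrected with normexp (offset 50) in limma 3.58.1 (R 4.3.3) and normalized by loess, without control spots and spots marked as outliers. The normexp fit left out spots with aberrant background (beyond 10 median absolute deviations). Accessions were matched to RefSeq symbols: 27479 of 41174 probes matched. Probes well above background in the lung channel on at least 4 arrays were kept, and a gene was the median over its probes. 1 fit of all 69 arrays held 14 group means, as the methods of the study named no other term. P-values were adjusted by Benjamini-Hochberg over all 17639 genes within each comparison, and an adjusted p below 0.05 was a call. The fit was tested on simulated data. Correlations used 100000 resamples, or all pairings for 9 mice, exchanged across groups, in Python 3.11.15 with numpy 2.4.6. Contrasts and correlations were tested 2-sided. Replicates were single mice by the labels, which do not number them across groups. The number of arrays limits the precision. The members and gene lists were chosen with earlier results of these data known. Of each list, genes among the 3 with the largest change at 162 µg could be named, and for each member the 5 genes most correlated with it; Ackr3 was named only as a list member. Alternatives were slide as a fixed or random block, scan day, the authors' table, processed signals, median centring, no filter, the mean over probes, the arrays of 1 day, the ordinary F and leaving out each array.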

Additional observations from a re-analysis of the deposited data

Results flagged for a closer look

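Of 42 groups of values, 14 for each of the 3 measured genes, 2 held an array far from the others of its group, where chance alone marks about 1 group in 20. Cxcl9 at 54 µg of NRCWE-001 on day 1 was 0.85 in replicate 3, while the other 4 mice lay between 0.12 and 0.32. Cxcl9 at 54 µg of NRCWE-002 on day 28 was 3.19 in replicate 1, while the other 4 lay between 0.27 and 1.04. That mouse also had the highest Cxcl10 (1.73) and Cxcr3 (2.24) of its group, and shared its slide with the highest mouse at 18 µg of the same particle and day. No cause was tested for either.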

How the results depend on the processing

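Of the members' changes recomputed under other settings on all arrays, 330 kept their direction and side of the threshold, 23 changed sign and missed the threshold both ways, and 1 passed it. With slide as a random block 1 member passed for the dose effect, Cxcl10 with NRCWE-001 on day 1. Leaving out 1 array gave 0 to 2 members called for the dose effect, 0 to 1 against vehicle on day 28 and 0 to 1 between particles, and 0 in the other comparisons. The particle difference on day 1 for Cxcl9 (0.02) was -0.105 with scan day as a block, -0.021 in the authors' table and -0.124 with processed signals. For Cxcl10 (0.07) it was -0.001168 with median centring. For Cxcr3 (0.014) it was -0.159 with slide as a fixed block, -0.097 as a random block, -0.16 with scan day, -0.002599 in the authors' table and -0.051 with median centring. The day 28 minus day 1 effect of NRCWE-001 for Cxcl9 (0.83) was -0.18 with processed signals, and for Cxcl10 (0.23) it was -0.32 with slide as a fixed and -0.092 as a random block. The vehicle difference between days for Cxcl10 (-0.07) was 0.67 with slide as a fixed block, 0.31 as a random block, 0.16 with scan day, 0.072 with processed signals and 0.046 with median centring, and for Cxcr3 (-0.08) it was 0.18, 0.057 as a random block and 0.004176 with median centring. Cxcr3 at 162 µg of NRCWE-002 on day 1 (0.03) was -0.18, -0.12 and -0.15 with slide as a fixed block, as a random block and with scan day. Over the left-out arrays the particle difference on day 1 ran from -0.063 to 0.073 for Cxcl9, from -0.079 to 0.229 for Cxcl10 and from -0.043 to 0.042 for Cxcr3. The Cxcl10 day difference with NRCWE-001 ran from -0.28 to 0.75, the Cxcl10 vehicle difference from -0.19 to 0.045, and the Cxcr3 change at 162 µg of NRCWE-002 on day 1 from -0.058 to 0.097. The cause of these shifts was not tested. The choice between median and mean over probes and the filter on dim probes moved no member's change, since each had 1 probe. A fit of the arrays of 1 day could not be made for comparisons between days. No paired analysis was possible because the replicate numbers follow accession order and the labels give none, so mice were matched by slide alone. The reference signal of Cxcl9 was well above background on 0 of 69 arrays, which limits what the size of its changes can tell.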
